A study of Mus musculus with 8 samples.

Results

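The 42 genes described here are interferon-stimulated genes, and they were the rows of the deposited count table whose gene symbol was on a fixed list, 42 of 31894 genes with an identifier. They were measured in tumor cells of a breast cancer brain metastasis (BCBM) model in mice. Organoids grown from a PyMT E-cad-mCFP mammary tumor that had been passaged serially in the brain were injected intracranially into FVB mice. PyMT is a viral oncogene driven in the mammary epithelium by the mouse mammary tumor virus promoter, and E-cad-mCFP is E-cadherin fused to a cyan fluorescent protein, so that the colour of a cell reports its E-cadherin. From each of 4 mice, 1 E-cadHI and 1 E-cadLO population was sorted by flow cytometry and sequenced as bulk mRNA, which gave 4 libraries per population. The labels give the strain FVB, the genotype wild type and the tissue brain metastasis tumor for all 8 libraries, and name no treatment. The age of the mice and the time after injection are not in the labels. All tumors came from 1 serially transplanted tumor model, and the methods describe a check of sort purity on E-cadHI cells only. E-cadLO cells are those that lost E-cadherin, a sign of epithelial-to-mesenchymal transition, and the comparison asks whether their interferon response differed from that of E-cadHI cells of the same tumor.

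Type I interferons bind the IFNAR receptor, type III interferons bind IFNLR1 with IL10RB, and both act through the kinases JAK1 and TYK2. STAT2 and IRF9 are parts of the complex ISGF3, which binds the interferon-stimulated response element (ISRE) upstream of many target genes. Interferon gamma acts through another element, the gamma-activated site (GAS). The products detect foreign nucleic acid, block translation or degrade RNA, tag proteins with ISG15, trap viral particles, or feed back on the pathway, and in tumors they are known as a trace of interferon signalling in the tumor cells or their surroundings.

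The promoter of many members carries the letters that ISGF3 binds, and the stretches below are shown because they belong to genes whose levels are described further on. RefSeq promoter windows (GRCm38.p6, 250 bases before to 50 bases after each gene start) were found for 32 of the 42 members. The core searched for the ISRE was GAAA, any 2 bases and again GAAA, on both strands, and read from the other strand it is TTTC, 2 bases and TTTC. It was present in 16 of 32 members, against 3.99% of all 27025 genes in the promoter table (3.44% of its 32851 promoters). The GAS letters TTCNNNGAA, also on both strands, were present in 10 of 32 members (31.2%), against 9.55% of all genes (8.3% of promoters). A match describes these letters and is not evidence of a bound site. Each stretch is written 5′ to 3′ on the strand of its gene, with the matched bases in capitals, where neighbouring matches can overlap.
Isg15: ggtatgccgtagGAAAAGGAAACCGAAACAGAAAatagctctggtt
Bst2: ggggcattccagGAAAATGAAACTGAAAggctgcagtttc
Oas1a: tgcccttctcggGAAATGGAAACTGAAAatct
Ifit1: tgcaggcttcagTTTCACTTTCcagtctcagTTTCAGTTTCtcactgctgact
Ifit3: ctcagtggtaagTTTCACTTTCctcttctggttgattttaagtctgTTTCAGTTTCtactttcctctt
Stat2: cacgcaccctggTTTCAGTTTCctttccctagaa
The Isg15 stretch at chr4:156200863-156200908, minus strand, held 3 overlapping matches, the nearest of them 57 bases before the gene start. Bst2 (chr8:71537575-71537614, minus strand) and Oas1a (chr5:120907526-120907557, minus strand) held 2 overlapping matches each. Ifit1 (chr19:34640773-34640825, plus strand) and Ifit3 (chr19:34583361-34583428, plus strand) each held 2 separate ones. Stat2 (chr10:128270264-128270297, plus strand) held 1 match. All 6 stretches lie upstream of the gene's first annotated base.

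Total counts ranged from 9102781 to 15769200 per library, and 13598 genes passed the filter on low counts, all 42 members among them. A single abundant noncoding RNA gene, Gm42418, took 2.23% to 14.4% of the counts. Levels are given as CPM, the counts of a gene scaled to a common library total, with the TMM correction for differences in library composition. Keratin transcripts of luminal tumor cells were abundant in all 8 libraries. Transcripts of Cdh1, the gene for E-cadherin, were 114, 132, 93.5 and 108 CPM in the E-cadHI cells of mice 57, 58, 67 and 70, and 71.6, 181, 84.5 and 59.2 CPM in their E-cadLO cells. The E-cadLO library of mouse 58 thus had the highest Cdh1 level of all 8, against its label. Markers of brain cells were present in both populations, and 12 microglia and macrophage markers summed to 33.7 to 241 CPM in E-cadHI and 209 to 848 CPM in E-cadLO. For the members themselves the E-cadHI library of mouse 57 stood apart. Fold changes that this mouse moved by more than 1.5 times are given without it for the most abundant member of each role. They are also given for the member of each role with the largest fold change. For other named members, such as Isg15, Bst2, Stat2, Mx1 and Ifi27, they are not given without mouse 57. In bulk samples, fewer cells of a type and less RNA per cell cannot be told apart.

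All 42 interferon-stimulated genes were well expressed in both populations. A member had between 277 and 16425 counts in a library, and the mean level over the 8 libraries ran from 41.2 CPM for Parp14 to 732 CPM for Irf7. The median of these means was 170.1 CPM, against 23.9 CPM for all genes tested, and every member lay above the 50th percentile of tested genes (64.1 to 99.3). Divided by exonic length, Isg15, a ubiquitin-like modifier, had the highest level per kilobase at 443 ± 158 CPM per kb in E-cadHI and 368 ± 49.7 CPM per kb in E-cadLO cells (SD, n = 4). Lgals3bp (289 ± 58.9), Rtp4 (259.5 ± 66.5), Irf7 (233 ± 47.2) and Bst2 (227 ± 47.1 CPM per kb in E-cadHI) followed, and these neighbours did not differ beyond their spread. The lowest level per kilobase was that of Parp14, an ADP-ribosyltransferase, with 4.57 ± 0.851 CPM per kb in E-cadHI and 4.30 ± 1.10 CPM per kb in E-cadLO.

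**Figure D1:**
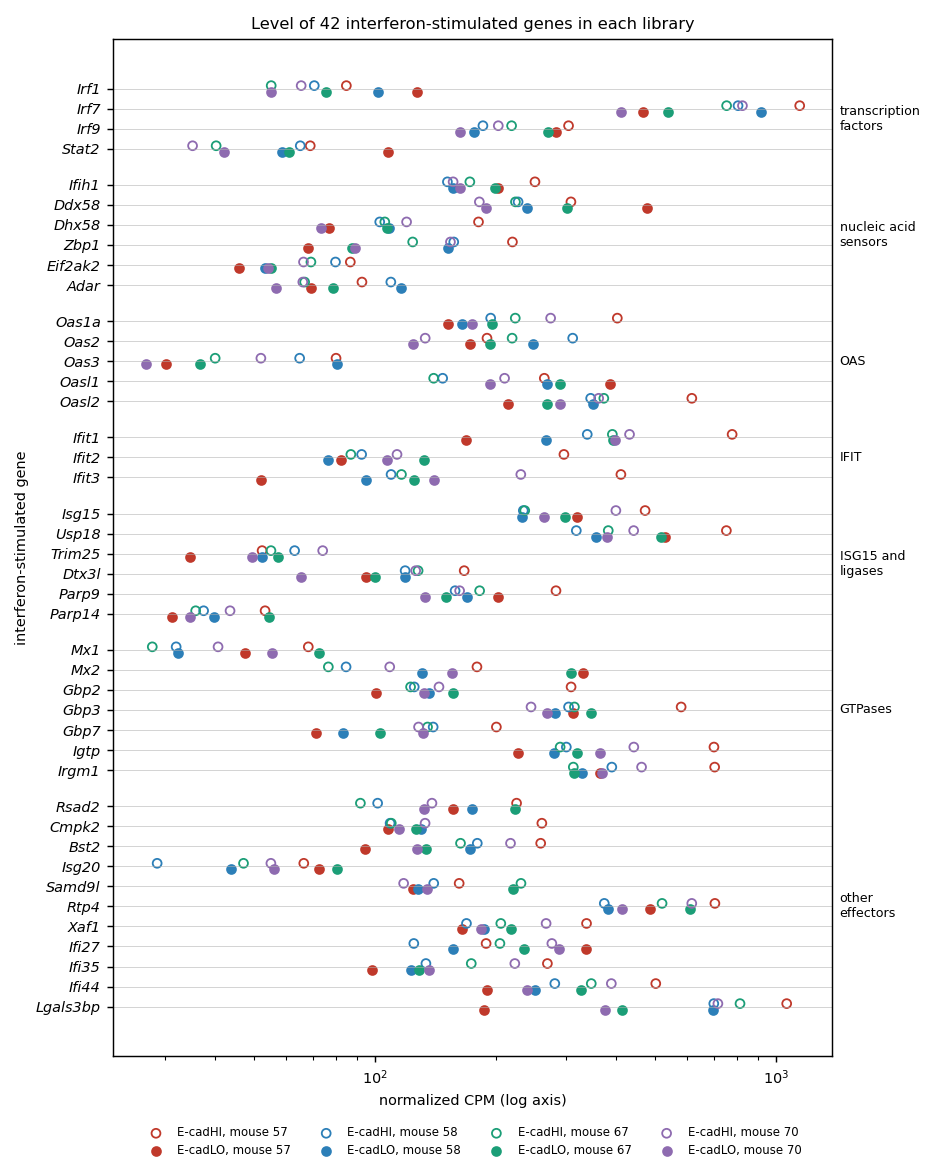
Each row is 1 of the 42 interferon-stimulated genes, grouped by role, and each point is its normalized level in CPM (log axis) in 1 library, open for E-cadHI and filled for E-cadLO, coloured by mouse. The open red points of the E-cadHI library of mouse 57 are the rightmost for 28 of the 42 genes.

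No interferon-stimulated gene passed the test between E-cadLO and E-cadHI cells. The quasi-likelihood test of edgeR was used, with p-values adjusted over all genes tested by the Benjamini-Hochberg method. By this test 0 of 42 members were higher and 0 of 42 were lower at an adjusted p under 0.05, where the share of all genes called was 0 in either direction. With the mouse as a block, edgeR again called 0 members, while 0.728% of all genes were called higher and 0 lower. DESeq2 without the mouse called 0 members (2.15% of all genes higher, 0.412% lower). DESeq2 with the mouse block called 2, Mx2 higher (7.57% of all genes) and Lgals3bp lower (1.63%). The smallest adjusted p of a member was 0.269 by edgeR without the block and 0.139 with it. At an unadjusted p under 0.05, edgeR without the block had 1 member higher (8.16% of all genes) and 11 of 42 lower, which is 26.2% against 5.81% of all genes. With the block these were 2 higher (12.3% of all genes) and 10 lower, which is 23.8% against 7.33%.

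The fold changes leaned to lower levels in E-cadLO cells, by a margin that depended on mouse 57. The log2 fold change of E-cadLO against E-cadHI was below 0 for 33 of 42 members, which is 78.6% against 44.9% of all genes tested, and its median was -0.35 against 0.06. With the mouse block 32 of 42 were below 0 (76.2%, against 47.8%). Without mouse 57, 25 of 42 were below 0 and the median was -0.13, against 0.02 for all genes. Without mouse 58, whose Cdh1 levels went against the labels, 33 of 42 were below 0 and the median was -0.42, against 0.10 for all genes. The share of all genes below 0 in these fits is not given. The approximate 95% confidence interval of the fold change lay within 2-fold in both directions for 22 of the 42 members, and for 37 of them it left out a level 2-fold or more higher in E-cadLO.

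**Figure D2:**
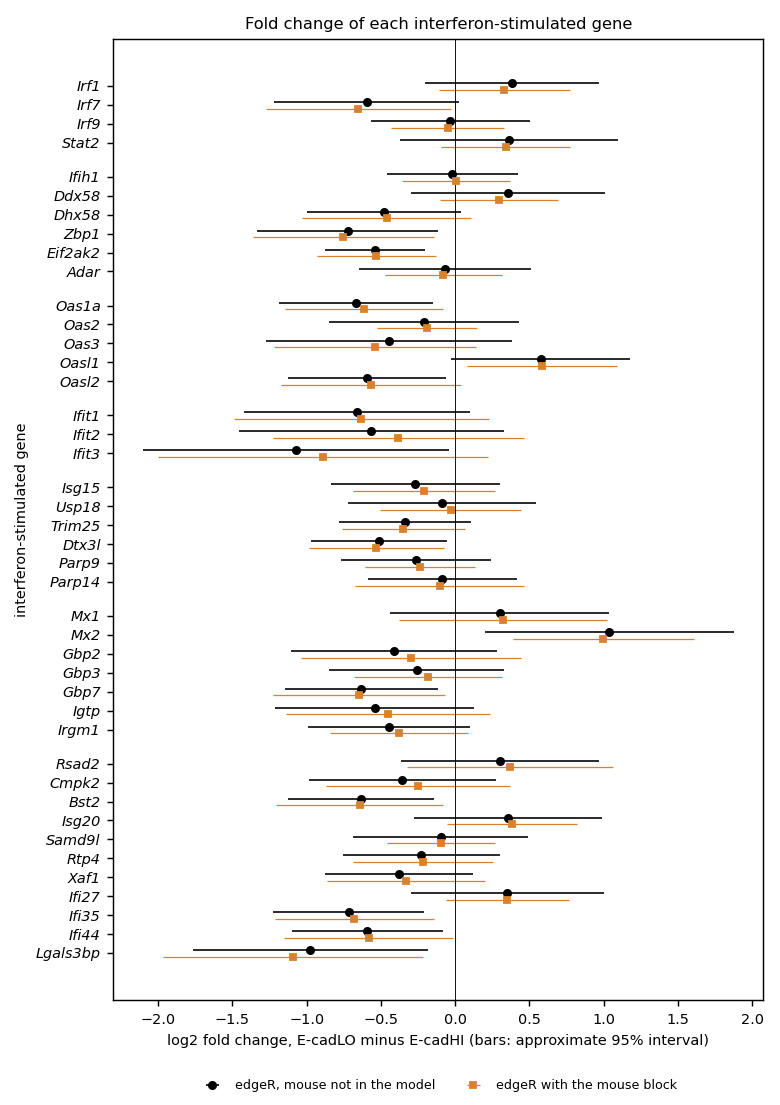
Points are log2 fold changes of E-cadLO minus E-cadHI for each member, grouped by role, from edgeR without (black circles) and with the mouse block (orange squares), and bars are approximate 95% confidence intervals. Without the block 33 of 42 points lie left of 0, and most bars cross it.

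The transcription factors that carry the signal did not share a direction. Irf7 (chr7:141262706-141266481, minus strand), the factor that amplifies interferon alpha production, was at 1145, 804, 753 and 824 CPM in the E-cadHI cells of mice 57, 58, 67 and 70, and at 465, 919, 538 and 409.9 CPM in their E-cadLO cells. The E-cadLO library of mouse 58 lay above all E-cadHI libraries but that of mouse 57, and the other three lay below all of them. Irf7 had a log2 fold change of -0.60 with a standard error (SE) of 0.28 (edgeR adjusted p = 0.369), which was -0.37 without mouse 57 and -0.93 without mouse 58. The exons of Irf7 share positions with Phrf1 on the other strand, and whether the counting used strand is not given in the sources used here. Irf9, the DNA-binding subunit of ISGF3, had a log2 fold change of -0.03. Stat2 and Irf1, a factor also induced by interferon gamma, had log2 fold changes of 0.36 and 0.38 (edgeR adjusted p = 0.589 and 0.496).

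Among the 6 sensors and RNA-binding enzymes, 5 had a log2 fold change below 0. The exception was Ddx58 (chr4:40203773-40239828, minus strand), which encodes the RNA sensor RIG-I. It was at 308, 227, 224 and 182 CPM in E-cadHI and at 477, 239, 301 and 189.7 CPM in E-cadLO cells. The level was higher in E-cadLO in 4 of 4 mice while the groups overlapped, and the log2 fold change was 0.36 (SE 0.29, edgeR adjusted p = 0.552) and 0.18 without mouse 57.

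Zbp1 (chr2:173206612-173218923, minus strand), a sensor of Z-form nucleic acid that triggers cell death, was at 220.2, 157, 124 and 154 CPM in E-cadHI and at 68.2, 152, 87.8 and 89.2 CPM in E-cadLO cells. Its level was lower in E-cadLO in 4 of 4 mice, with a log2 fold change of -0.72 (SE 0.27, edgeR adjusted p = 0.313), or -0.42 without mouse 57. Eif2ak2 encodes PKR, the kinase that halts translation on double-stranded RNA. It was at 86.8, 79.8, 69.3 and 66.4 CPM in E-cadHI and at 45.8, 53.3, 55.2 and 54.1 CPM in E-cadLO cells. The groups did not overlap, and Eif2ak2 had the smallest adjusted p of all members (log2 fold change -0.54, SE 0.15, edgeR adjusted p = 0.269). A non-overlapping lower level was seen in 3 of 42 members (7.14%), against 4.20% of all genes, and a non-overlapping higher level in 0 of 42, against 3.90%. The other 2 were Lgals3bp and Dtx3l, the latter with its closest libraries at 118.9 and 118.5 CPM.

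The OAS enzymes make 2-5A, the messenger that activates RNase L, while Oasl1 lacks that activity and is known to repress the translation of Irf7. Oas1a (chr5:120896256-120907521, minus strand) was at 402, 194, 224 and 274 CPM in E-cadHI and at 152, 165, 196 and 175 CPM in E-cadLO cells. It was lower in E-cadLO in 4 of 4 mice, though the groups overlapped by 1 library (log2 fold change -0.67, SE 0.23, edgeR adjusted p = 0.301, or -0.39 without mouse 57). Oasl2, the most abundant of the 5, was at 616 CPM in the E-cadHI cells of mouse 57 and at 345 to 372 CPM in those of the other three. Its E-cadLO levels were 214, 349, 268 and 289 CPM, and the log2 fold change was -0.60 (SE 0.24, edgeR adjusted p = 0.325) and -0.27 without mouse 57. Oasl1 was the only one of the 5 with a log2 fold change above 0 (0.58, SE 0.27, edgeR adjusted p = 0.369). Its levels were 264, 148, 140.1 and 210.5 CPM in E-cadHI and 385, 269, 289.9 and 194 CPM in E-cadLO cells.

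The IFIT proteins bind foreign RNA ends and block its translation, and the 3 members lie near each other on chromosome 19. Ifit3b, of the same family, is counted separately (log2 fold change -1.03), and reads can be split between Ifit3 and Ifit3b. Ifit1 (chr19:34640871-34650009, plus strand) was at 777, 338, 391 and 431 CPM in E-cadHI and at 169, 268, 393 and 397 CPM in E-cadLO cells. Ifit3 (chr19:34583531-34588731, plus strand) was at 410.3, 109.7, 116 and 231 CPM in E-cadHI and at 52.2, 95.1, 125 and 140.1 CPM in E-cadLO cells. For both genes mouse 57 held the highest E-cadHI and the lowest E-cadLO level, and the remaining libraries overlapped. The log2 fold change was -0.66 for Ifit1 (SE 0.34, edgeR adjusted p = 0.401) and -1.07 for Ifit3 (SE 0.46, edgeR adjusted p = 0.345). Without mouse 57 these values were -0.16 and -0.36.

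The modifier group holds Isg15, the protease Usp18 that removes it and damps the receptor, the ligases Trim25 and Dtx3l, and the ADP-ribosyltransferases Parp9 and Parp14. All 6 had log2 fold changes below 0, from -0.51 to -0.09. Isg15 was at 471, 234, 236 and 399 CPM in E-cadHI and at 318, 233, 297 and 264 CPM in E-cadLO cells, with a log2 fold change of -0.27 (SE 0.25, edgeR adjusted p = 0.606). Usp18 (chr6:121245906-121270917, plus strand) was at 752, 318, 382 and 441 CPM in E-cadHI and at 529.7, 355, 518 and 379 CPM in E-cadLO cells. Its groups overlapped throughout, with a log2 fold change of -0.09 (SE 0.28, edgeR adjusted p = 0.893) that was 0.11 without mouse 57. Dtx3l (chr16:35926511-35939151, minus strand), which works as a pair with Parp9, was at 167, 119, 128 and 126 CPM in E-cadHI and at 94.8, 119, 100.1 and 65.4 CPM in E-cadLO cells (log2 fold change -0.51, SE 0.20, edgeR adjusted p = 0.326). Dtx3l and Parp9 overlap on opposite strands, so their counts may not be separate.

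The GTPases held the largest fold change above 0, that of Mx2, while 5 of the 7 were below 0. Mx2 (chr16:97535308-97560900, plus strand), a dynamin-like antiviral GTPase annotated in the count table as a polymorphic pseudogene, was at 179.6, 84.8, 76.6 and 109 CPM in E-cadHI and at 329, 131, 309 and 155 CPM in E-cadLO cells. It was higher in E-cadLO in 4 of 4 mice, and the groups overlapped because the E-cadHI cells of mouse 57 lay above the E-cadLO cells of mice 58 and 70. Mx2 had a log2 fold change of 1.04 (95% confidence interval 0.20 to 1.88, edgeR adjusted p = 0.305), and DESeq2 with the mouse block gave 1.02 with an adjusted p of 0.00506. Over all alternatives the adjusted p of Mx2 ran from 0.00506 to 0.695. Mx1, its neighbour on chromosome 16, had a log2 fold change of 0.30 (SE 0.33, edgeR adjusted p = 0.661). Irgm1 (chr11:48861968-48871683, minus strand), an immunity-related GTPase of vacuole defence, was at 703, 389, 312 and 462 CPM in E-cadHI and at 363, 327, 313 and 369 CPM in E-cadLO cells. Those groups overlapped, with a log2 fold change of -0.44 (SE 0.24, edgeR adjusted p = 0.425) that was -0.23 without mouse 57. The guanylate-binding proteins Gbp2, Gbp3 and Gbp7 and the GTPase Igtp all had log2 fold changes below 0, from -0.63 to -0.26, and families of this kind hold close paralogs between which reads can be split.

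Of the 11 other effectors, 8 had a log2 fold change below 0. Lgals3bp (chr11:118392751-118402092, minus strand), a secreted galectin-binding glycoprotein, was at 1062, 699, 813 and 716 CPM in E-cadHI and at 187, 697, 413 and 375 CPM in E-cadLO cells. The groups did not overlap, although in mouse 58 the levels were nearly equal. Lgals3bp had a log2 fold change of -0.98 (95% confidence interval -1.77 to -0.19, edgeR adjusted p = 0.305), and DESeq2 with the mouse block gave -1.07 with an adjusted p of 0.0255. Without mouse 57 the log2 fold change of Lgals3bp was -0.60. Over all alternatives the adjusted p of Lgals3bp ran from 0.0255 to 0.681. Bst2, the tetherin that holds budding virions at the cell surface, was at 259, 180.0, 163 and 218 CPM in E-cadHI and at 94.5, 172, 134 and 127 CPM in E-cadLO cells. It was lower in E-cadLO in 4 of 4 mice (log2 fold change -0.63, SE 0.22, edgeR adjusted p = 0.301). Isg20, an RNA exonuclease, and Ifi27 were higher in E-cadLO in 4 of 4 mice, with log2 fold changes of 0.36 and 0.35 (edgeR adjusted p = 0.542 and 0.554). In all, 4 members were higher in E-cadLO in every mouse (9.52%, against 16.8% of all genes) and 9 were lower in every mouse (21.4%, against 14.2%).

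Within each mouse, the members differed to unequal extents and not in 1 direction. In mouse 57, 35 of 42 members were lower in E-cadLO (83.3%, against 48.3% of all genes), and the median log2 ratio was -0.85. In mouse 70, 32 of 42 were lower (76.2%, against 44.7%), with a median of -0.28. Mouse 58 was split evenly, with 21 of 42 lower, against 49.9% of all genes. Mouse 67 leaned the other way, with 15 lower (35.7%, against 49.0%), 27 higher and a median of 0.12.

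The gene with the lowest ratio differed between mice, while Mx2 had the highest ratio in mice 57, 67 and 70 and Oasl1 in mouse 58. In mouse 57 the log2 ratio ran from -2.96 for Ifit3 to 0.87 for Mx2, and in mouse 67 from -0.98 for Lgals3bp to 2.0 for Mx2. The IFIT genes had a median log2 ratio of -2.20, -0.28, 0.10 and -0.12 in mice 57, 58, 67 and 70. The OAS genes had -1.39, 0.02, -0.18 and -0.32 in the same order, and the transcription factors 0.24, 0.06, 0.37 and -0.29. Over the 4 mice, 103 of 168 ratios were below 0 (61.3%, against 48.0% for all genes). The mean of the medians of the 4 mice was -0.25 ± 0.43 (SD, n = 4), a mean smaller than its spread. With 4 pairs no exact paired test can reach p = 0.05, and none was made.

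**Figure D3:**
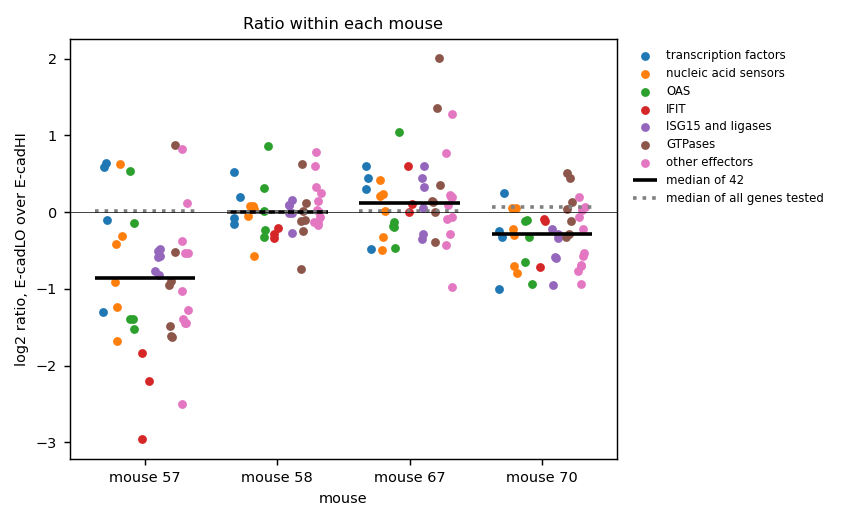
Each point is the log2 ratio of E-cadLO over E-cadHI for 1 member within 1 mouse, coloured by role, with the median of the 42 members (black line) and of all genes tested (dotted grey line). From left to right the black lines are at -0.85, near 0, at 0.12 and at -0.28.

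The library that stood apart was the E-cadHI library of mouse 57, which had the highest level of most interferon-stimulated genes. It held the highest of the 8 levels for 28 of 42 members (66.7%, against 13.4% of all genes), and the highest of the 4 E-cadHI levels for 37 (88.1%, against 25.4%). Summed over the members, the level was 14331 CPM in this library, 8202 to 9647 CPM in the other three E-cadHI libraries and 7353 to 8920 CPM in the 4 E-cadLO libraries. The E-cadLO library of the same mouse, at 7858 CPM, was inside that last range. It held the highest level of 6 members, Irf1, Stat2, Ddx58, Oasl1, Mx2 and Ifi27 (14.3%, against 21.5% of all genes), and the lowest of the 4 E-cadLO levels for 18 (42.9%, against 37.0%). After centring each gene on its mean over the libraries, the median member lay 0.68 above 0 on the log2 scale in the E-cadHI cells of mouse 57. Elsewhere it lay between -0.28, in the E-cadLO library of mouse 57, and 0.10.

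The markers of other cells moved in their own pattern across these libraries. The 12 microglia and macrophage markers had their lowest sum, 33.7 CPM, in the E-cadHI library of mouse 57, and were higher in E-cadLO in 4 of 4 mice. The 12 T and NK cell markers summed to 11.9 to 17.9 CPM in E-cadHI and 12.2 to 57.7 CPM in E-cadLO, and 11 of the 12 were too low to be tested. In the E-cadHI library of mouse 57 this sum was 16.7 CPM, of which Lck made up 16.7, and Cd3e, Cd3d and Cd3g were at 0 counts there as in that of mouse 67. The 10 neutrophil markers summed to 16.1 to 25.4 CPM in E-cadHI and 9.06 to 27.7 CPM in E-cadLO, and 8 of the 10 were too low to be tested, with S100a8 alone at 22.9 of 23.8 CPM in the E-cadHI library of mouse 57. The 7 plasmacytoid dendritic cell markers that are not members summed to 58.2 to 87.2 CPM and 75.4 to 188 CPM, again lowest in the E-cadHI library of mouse 57, where Siglech was at 0 counts and Tcf4 made up 53.1 CPM. In the E-cadHI library of mouse 57 these 3 sums thus rested largely on 1 gene each, which other cells also express.

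Other brain and stromal markers were detected as well. The 10 endothelial markers summed to 42.7 to 78.5 CPM in E-cadHI and 63.7 to 113 CPM in E-cadLO, and the 8 neuron markers to 3.69 to 92.5 CPM and 24.9 to 376 CPM. The 8 astrocyte markers summed to 1146 to 3557 CPM and 723 to 9881 CPM, and the 8 oligodendrocyte markers to 554 to 8618 CPM and 1321 to 34587 CPM. The 8 fibroblast and mural markers reached 1201 CPM in the E-cadLO library of mouse 57, against 9.13 to 182 CPM in the other seven. That library also had the lowest sum of the 10 luminal epithelial markers, 5616 CPM, against 7524 to 14107 CPM in the others. The part of these cells in the levels of the members was not tested.

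**Figure D4:**
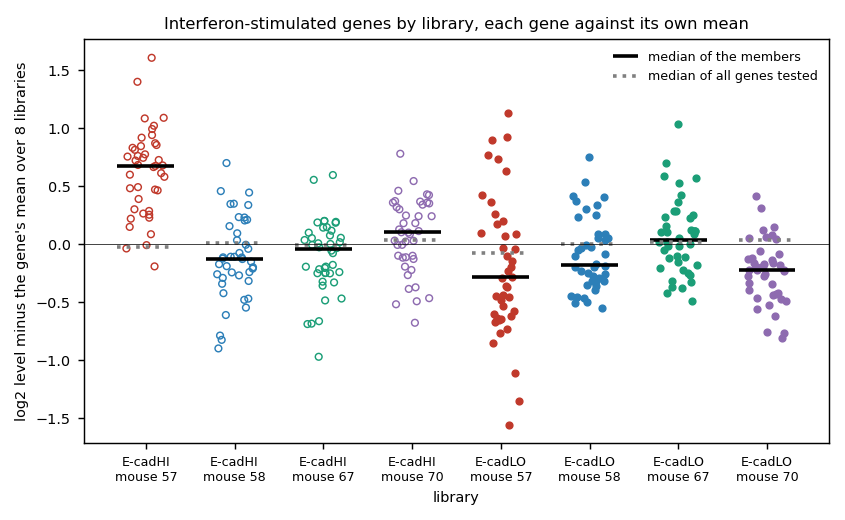
Each point is 1 of the 42 members in 1 library, as its log2 level (CPM plus 0.5) minus the mean of that gene over the 8 libraries, with the median of the members (black line) and of all genes tested (dotted grey line). The black line of the E-cadHI library of mouse 57 is at 0.68, and those of the other seven lie between -0.28 and 0.10.

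The level of the members was also compared between mice, with the population allowed for. By edgeR's F test on the 3 mouse terms, 0 of 42 members passed an adjusted p under 0.05, against 1.96% of all genes, and the smallest adjusted p was 0.123 for Oas2. At an unadjusted p under 0.05 there were 8 members (19.0%, against 14.7% of all genes). The DESeq2 likelihood ratio test called 5 members, Stat2, Ddx58, Oas2, Samd9l and Ifi27 (11.9%, against 9.26% of all genes). These shares were near those of all genes, so they are not read as a result about the members. Oas2 had the smallest adjusted p of the members in both tests. It was at 311 and 248 CPM in the E-cadHI and E-cadLO cells of mouse 58 and at 133 and 124 CPM in those of mouse 70. The 4 libraries of mice 57 and 67 lay between, at 173 to 219.8 CPM, so that both populations of a mouse had like levels (DESeq2 adjusted p = 2.38e-04). Samd9l, a translation inhibitor, was at 231 and 221 CPM in mouse 67 and at 118 to 162 CPM in the other six libraries (DESeq2 adjusted p = 0.0236, edgeR F test adjusted p = 0.228).

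Upstream of the members, transcripts of the interferons themselves were scarce and uneven. Of 40 listed pathway genes 38 were in the table and 29 were tested, and edgeR without the block called 0 of the 29 (0 of all genes). Their median log2 fold change was 0.12, with 17 above 0 and 12 below. Ifnb1, which encodes interferon beta, had 16, 2, 0 and 0 counts in the E-cadHI cells of mice 57, 58, 67 and 70, and 16, 11, 136 and 47 counts in their E-cadLO cells. All 4 E-cadLO levels in CPM were above the E-cadHI levels, though in mouse 57 they were 1.12 and 1.19 CPM. The log2 fold change of Ifnb1 was 3.49 with an SE of 1.29 (edgeR adjusted p = 0.311), and DESeq2 with the mouse block gave an adjusted p of 0.00731, in a range of 0.00731 to 0.693 over all alternatives. Its log2 fold change was 6.19 without mouse 57 and 2.12 without mouse 67.

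The lambda interferon genes Ifnl2 and Ifnl3 are nearly identical, so reads can be split between them and their counts are uncertain. Ifnl2 had 89, 2, 0 and 0 counts in E-cadHI and 6, 10, 551 and 6 counts in E-cadLO cells. Ifnl3 had 22, 1, 0 and 0 counts in E-cadHI and 2, 6, 509 and 1 counts in E-cadLO cells. Ifna4, of the interferon alpha family, had 5, 0, 0 and 3 counts in E-cadHI and 28, 36, 383 and 4 counts in E-cadLO cells. All 4 ligand genes thus had their highest level in the E-cadLO library of mouse 67, where the members lay near their means. The E-cadHI library of mouse 57, in which most members peaked, had the next highest Ifnl2 and Ifnl3 level. Whether these counts bear on the members was not tested.

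No receptor or kinase passed the test between the populations. Ifngr1, the ligand-binding chain of the interferon gamma receptor, was the most abundant receptor, at 148 ± 21.8 CPM in E-cadHI and 163 ± 37.4 CPM in E-cadLO cells (SD, n = 4), with a log2 fold change of 0.14 (SE 0.20, edgeR adjusted p = 0.738) and 0.05 to 0.22 with 1 mouse left out. Ifnlr1, the lambda receptor chain, was at 7.27 ± 3.33 and 9.45 ± 2.74 CPM (log2 fold change 0.38, SE 0.41, edgeR adjusted p = 0.656), with log2 fold changes of 0.18 without mouse 58 and 0.70 without mouse 67. Stat3, which carries cytokine signals, was at 445 ± 69.0 and 363 ± 44.0 CPM and lower in E-cadLO in 4 of 4 mice (log2 fold change -0.30, SE 0.17, edgeR adjusted p = 0.441). Socs1, a feedback inhibitor of JAK kinases, was at 2.46 ± 0.713 and 4.58 ± 2.58 CPM (log2 fold change 0.89, SE 0.57, edgeR adjusted p = 0.472). Each of these differences was within what the spread between libraries gives.

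Of the 12 tested sensors, adaptors and inducing factors, Tmem173 was the most abundant and Irf8 had the largest fold change. Tmem173 encodes STING, the adaptor of cytosolic DNA sensing. It was at 205, 168, 173 and 190.0 CPM in E-cadHI and at 103, 131, 130.3 and 145 CPM in E-cadLO cells, without overlap (log2 fold change -0.53, SE 0.15, edgeR adjusted p = 0.278). Tlr3, the endosomal receptor of double-stranded RNA, had the lowest log2 fold change of the 12, -0.74 (SE 0.29, edgeR adjusted p = 0.321), also without overlap. Its log2 ratio was -2.03 in mouse 57 and -0.23, -0.86 and -0.05 in mice 58, 67 and 70. Myd88 was lower and Irf5 higher without overlap (log2 fold change -0.35 and 1.93, edgeR adjusted p = 0.371 and 0.343). Of all genes, 4.20% were lower and 3.90% higher without overlap. Irf8, a factor of myeloid cells and microglia, was at 0.767, 0.999, 4.31 and 5.36 CPM in E-cadHI and at 3.27, 8.96, 24.6 and 19.0 CPM in E-cadLO cells. It was higher in E-cadLO in 4 of 4 mice, with an adjusted p of 0.301 by edgeR without the block and 0.0392 with it (log2 fold change 2.38), in a range of 2.57e-07 to 0.680 over all alternatives. The microglia and macrophage markers were higher in the same 4 E-cadLO libraries, and their part in the Irf8 difference was not tested.

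**Figure D5:**
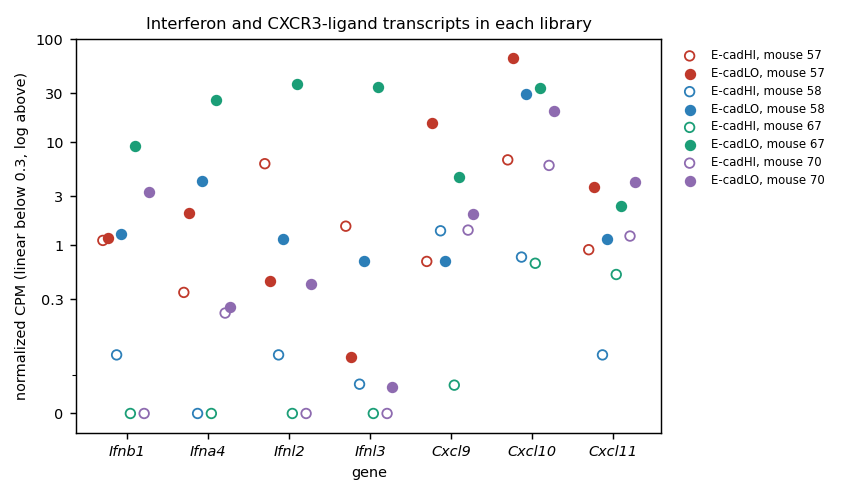
Normalized level in CPM (linear below 0.3, log above) of 4 interferon genes and 3 interferon-induced chemokine genes in each library, open points for E-cadHI and filled points for E-cadLO, coloured by mouse. The 4 interferon genes are highest in the filled green point, the E-cadLO library of mouse 67, while Cxcl10 is higher in all 4 E-cadLO libraries than in any E-cadHI library.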

How the data were processed

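The authors prepared TruSeq mRNA libraries, sequenced single reads and mapped them with Hisat 2.1.0 to GRCm38. The deposited table holds raw read counts per gene. The paper names Icount as the counter and the submitters' processing notes list HTSeq, and strand and multimapping settings are not given in the sources used here. Of 32259 rows, 365 without a gene identifier were left out (0.0636% to 0.0954% of counts).

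From these counts, edgeR 4.0.16 (R 4.3.3; TMM, filterByExpr by population, glmQLFit and glmQLFTest) was fitted to all 8 libraries and 13598 genes, with Benjamini-Hochberg adjustment over all of them at 0.05. The mouse was not in the model, as the study states no block, and fits with it as a block were the alternative. Same-numbered libraries came from the same mouse, and their deviations from the population means correlated at 0.275 to 0.698 over 4 pairs (at most 0.153 over the 12 other pairs). DESeq2 1.42.0, other scaling and filters, and each mouse left out were tried too. Simulated counts were run through both fits, with changes larger than any member's and no mouse effect in the population comparison. This is a check of the code and does not show how the fits perform on differences of the size seen in the members. Log2 ratios within a mouse used CPM plus 0.5, and levels per kilobase used the exonic length of each gene. Intervals are the fold change with its SE from the quasi-likelihood F statistic, and are approximate.

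The members and lists were chosen with earlier results of these data known. Genes named with values were, in each role, the most abundant and the one with the largest fold change, any member called by edgeR, the same by role for pathway genes, and the 3 other interferon-induced genes with the largest fold change. Others named, such as Isg15, Eif2ak2, Oasl1, Bst2, Oas2, Samd9l and Tlr3, were chosen after their values were seen. Exons of 16 members share positions with another gene. Promoters were RefSeq windows on GRCm38.p6, with none found for Dhx58, Zbp1, Oas2, Usp18, Parp9, Parp14, Mx1, Mx2, Rtp4 and Ifi27.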

Additional observations from a re-analysis of the deposited data

Results flagged for a closer look

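Each value below was far from the other 3 of its group of 4. Of 159 such groups 13 were marked, where chance marks about 1 in 20, or 7.95, and 10 of the 13 came from mouse 57. Among the members, the E-cadHI cells of mouse 57 stood above the other 3 E-cadHI libraries for Oasl2 (616 CPM, others 345 to 372), Ifit2 (296 CPM, others 87.1 to 114), Gbp2 (308 CPM, others 123 to 144), Gbp7 (201 CPM, others 128 to 139.7) and Cmpk2 (261 CPM, others 109 to 133). The log2 ratio of Ifit1 was -2.20 in mouse 57 and -0.34 to 0.01 in the others. Samd9l stood out in the E-cadLO cells of mouse 67 (221.0 CPM, others 125 to 135), and the log2 ratio of Irf1 was -0.25 in mouse 70 and 0.45 to 0.59 in the others.

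Among the pathway genes, Ifnl2 stood out in the E-cadHI cells of mouse 57 (6.20 CPM, others 0 to 0.154) and in the E-cadLO cells of mouse 67 (37.1 CPM, others 0.419 to 1.16). Ifnb1 stood out in the E-cadHI cells of mouse 57 (1.12 CPM, others 0 to 0.154). The log2 ratio in mouse 57 was -0.58 for Stat3 (others -0.22 to -0.17) and -0.99 for Tmem173 (others -0.41 to -0.35).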

How the results depend on the processing

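Of the comparison counts and medians recomputed under the alternatives, 52 values kept their reading and 8 moved. The replicate block, which pairs the libraries by mouse, called 1 pathway gene (Irf8), and DESeq2 with the replicate block called 2 members, 3 pathway genes (Ifnb1, Irf5 and Irf8) and 6 other interferon-induced genes (Ifi47, Ifitm2, Cxcl10, Cxcl11, Ly6e and Epsti1). DESeq2 without it called 4 of the latter. The count of members that differed between mice was 5 by the DESeq2 likelihood ratio test, where 9.26% of all genes were called. It was 7 with no filter on low counts, and ran from 0 to 3 with 1 mouse left out. The 3 (Oas2, Samd9l and Ifi27) came without mouse 57. The shares of all genes in these last fits are not given, so their counts are not read as a result about the members. The number of all genes called between the populations was 0 by edgeR, 99 with the block, 23 without a filter, 3 with at least 10 counts in every library, 348 by DESeq2 and 1251 by DESeq2 with the block. The median log2 fold change of the members ran from -0.49 to -0.12 with 1 mouse left out, blocked or not, and was nearest to 0 without mouse 57. Members called between the populations were 0 throughout those fits. Of the single genes, 207 values kept their reading, 8 newly passed the threshold (all with the replicate block or by DESeq2) and 1 reversed. That was Usp18, at 0.11 without mouse 57 in a range of -0.24 to 0.11. The cause of these changes was not tested. With 4 mice, the intervals of 22 of 42 members left out 2-fold differences in both directions, and those of the rest did not. Ligand genes rest on few counts, with 3 counts equal to 0.202 to 0.349 CPM.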

Other observations

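A second list, of 57 interferon-induced genes that are not among the 42, also had more fold changes below 0 than above it. Of the 57, 53 were in the table and 50 were tested, and edgeR called 0 of them without the mouse block and 0 with it, where 0 and 0.728% of all genes were called. The log2 fold change was below 0 for 33 of 50 and above 0 for 17, where 44.9% of all genes were below 0. Its median was -0.37 against 0.06 for all genes. Many of the lower genes peaked in the E-cadHI library of mouse 57, and how far the median depends on that mouse was not tested. Ifi47, Ifitm2, Ifitm3, Ly6e, Slfn2, Epsti1 and Psmb8 were lower in E-cadLO in every mouse and without overlap (4.20% of all genes). In mouse 58 the log2 ratios of these genes ran from -0.38 for Ifi47 to -0.02 for Ifitm3. Only Cxcl10 was higher without overlap (3.90% of all genes). DESeq2 without the block called 4, Ifi47, Ifitm2 and Epsti1 lower (0.412% of all genes) and Cxcl10 higher in E-cadLO (2.15% of all genes). Ifi47, an immunity-related GTPase, was at 375, 178, 151 and 253 CPM in the E-cadHI cells of mice 57, 58, 67 and 70 and at 85.4, 137, 113 and 136 CPM in their E-cadLO cells. Its log2 ratio was -2.13 in mouse 57 and -0.38, -0.41 and -0.90 in mice 58, 67 and 70.

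The chemokines that bind CXCR3 and attract T cells had the largest fold changes of the 50. Cxcl10 was at 6.76, 0.768, 0.669 and 5.97 CPM in E-cadHI and at 65.7, 29.2, 33.9 and 20.2 CPM in E-cadLO cells. The groups did not overlap, and the log2 fold change was 3.39 (SE 0.78), with an adjusted p of 0.251 by edgeR, 0.0547 by edgeR with the mouse block and 1.81e-04 by DESeq2, in a range of 4.42e-10 to 0.680 over all alternatives. Cxcl9 had a log2 fold change of 2.66 (SE 1.04, edgeR adjusted p = 0.321) and was lower in E-cadLO in mouse 58, and without mouse 57 the value was 1.35. Cxcl11 had one of 2.02 (SE 0.70, edgeR adjusted p = 0.301) and was higher in E-cadLO in 4 of 4 mice. DESeq2 with the mouse block gave Cxcl11 an adjusted p of 0.0205, in a range of 0.0205 to 0.680 over all alternatives. Summed markers of microglia and macrophages, of fibroblasts and mural cells and of several other cell types were also higher in E-cadLO in 4 of 4 mice. In the E-cadLO library of mouse 57, where Cxcl10 was highest, the microglia and macrophage sum was 258 CPM (209 to 848 CPM over E-cadLO). The fibroblast and mural sum was 1201 CPM there (26.5 to 1201 CPM over E-cadLO). The part of these cells was not tested.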
